A study of Mus musculus with 25 samples.

Results

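The interferon-induced GTPase, Ifi, Ifit and Oas families were followed in RNA from E0771 tumours of mice given an antibody against CD73 and of control mice. Members were all genes of the expression table whose symbol begins with Gbp, Ifit, Ifitm, Ifi, Oas, Oasl, Irgm, Mx, Iigp, Tgtp or Isg followed by a digit, together with Igtp, which gave 65 of 25006 entries. Of these, 17 were GTPases named Gbp, Irgm, Iigp, Tgtp or Igtp and 48 were other members. The 2 groups compared were C57BL/6 mice bearing tumours of E0771, a mammary carcinoma line of that strain, that received anti-CD73 every 3 days (3 libraries) and mice bearing the same tumours that served as controls (3 libraries). CD73, encoded by Nt5e, forms adenosine from AMP outside cells. The labels call the material enriched CD8+ T cells from tumour tissue and give neither an age of the mice nor what the controls received. The other 19 of the 25 samples were not analysed here.

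Interferons are secreted proteins that change the transcription of many genes in the cells they reach. Type I interferons act through the receptor of Ifnar1 and Ifnar2 and a complex that holds Stat2 and Irf9, which binds an element called ISRE. Interferon gamma, made by T cells and natural killer cells, acts through Ifngr1 and Ifngr2 and on genes with an element called GAS. Guanylate-binding proteins (Gbp) and immunity-related GTPases (Irgm, Iigp, Tgtp, Igtp) are large GTPases that attack or guard membranes around intracellular microbes and are known for strong induction by interferon gamma. Ifit proteins bind viral RNA, Oas proteins make a nucleotide messenger when they bind double-stranded RNA, Ifitm proteins block viral entry at membranes, and Isg15 is a ubiquitin-like modifier; these are known targets of type I interferon.

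Recovered reads ranged from 10180624 to 17161679 per library. Values are counts divided by the authors' size factor per library, called normalized counts, and are not corrected for gene length, so levels are compared between libraries and not between genes or gene lists. The 9 measured genes of a list of 10 T cell markers, of which none was at 0 in all libraries, summed to between 284 and 552 normalized counts after anti-CD73 and between 142 and 588 in controls. All 10 macrophage markers were detected as well, with sums of 10250 to 18676 after anti-CD73 and 6519 to 12509 in controls. Cd8a, which defines CD8+ T cells, had at most 90.2 normalized counts after anti-CD73 and 122 in controls. The libraries thus held RNA of other cells besides T cells, and in bulk RNA fewer cells of a type and less RNA per cell cannot be told apart. Nothing in the labels says that replicates came from different mice, and p-values therefore reflect only the spread among these libraries, possibly of technical origin. Control replicate 1 stood apart from the other controls in many of the genes described here, the GTPases above all, and counts are also given without it, a choice made after the data were seen.

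Most family members lay higher after anti-CD73, but no member passed the test over all genes. Of the 65 members, 52 had a mean of at least 10 normalized counts and were tested (14 GTPases and 38 others), and 50 of these 52 had a log2 fold change above 0, against 50.5% of all tested genes. By limma on log2(normalized count + 1), 0 of 52 members had an adjusted p under 0.05, as did 0% of the 12262 genes tested, and the smallest adjusted p of a member was 0.158. At an unadjusted p under 0.05, 0 of 14 GTPases and 18 of 38 other members (47.4%) were higher and 0 members were lower, against 8.69% higher and 6.82% lower over all tested genes. On reads recovered from the table, edgeR's quasi-likelihood test called 0 members and 0% of all genes, and DESeq2 on the same reads called 7 members, all of them higher and none a GTPase (Tgtp1 had no adjusted p), against 2.99% of the genes it gave an adjusted p. Of all genes past that unadjusted threshold, 56.0% lay higher with the deposited scaling and 73.4% when libraries were scaled to equal totals.

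The GTPases and the other members differed in where control replicate 1 lay. Among the 14 tested GTPases, control replicate 1 held the highest value of the 6 libraries for 9, and among the 38 other members for 5, against 30.7% of all tested genes. It exceeded both other controls for 14 of 14 GTPases and 30 of 38 other members, against 45.1% of all tested genes. Its distance above the mean of control replicates 2 and 3 had a median of 1.70 on the log2 scale for the GTPases (range 0.91 to 2.57) and of 0.69 for the other members (range -0.92 to 2.52), against 0.02 over all tested genes. The median log2 fold change of anti-CD73 over all 3 controls was 0.52 for the GTPases and 0.68 for the other members, and 0.0039 over all tested genes. Without control replicate 1 the medians were 1.12 and 0.96, against -0.015 over all tested genes, so the order of the classes turned with that library. The gap between the class medians, -0.16 with all controls and 0.16 without that library, was small beside its spread. Its pooled within-group SD over library medians was 0.49. No test was made of the difference between the classes.

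**Figure D1:**
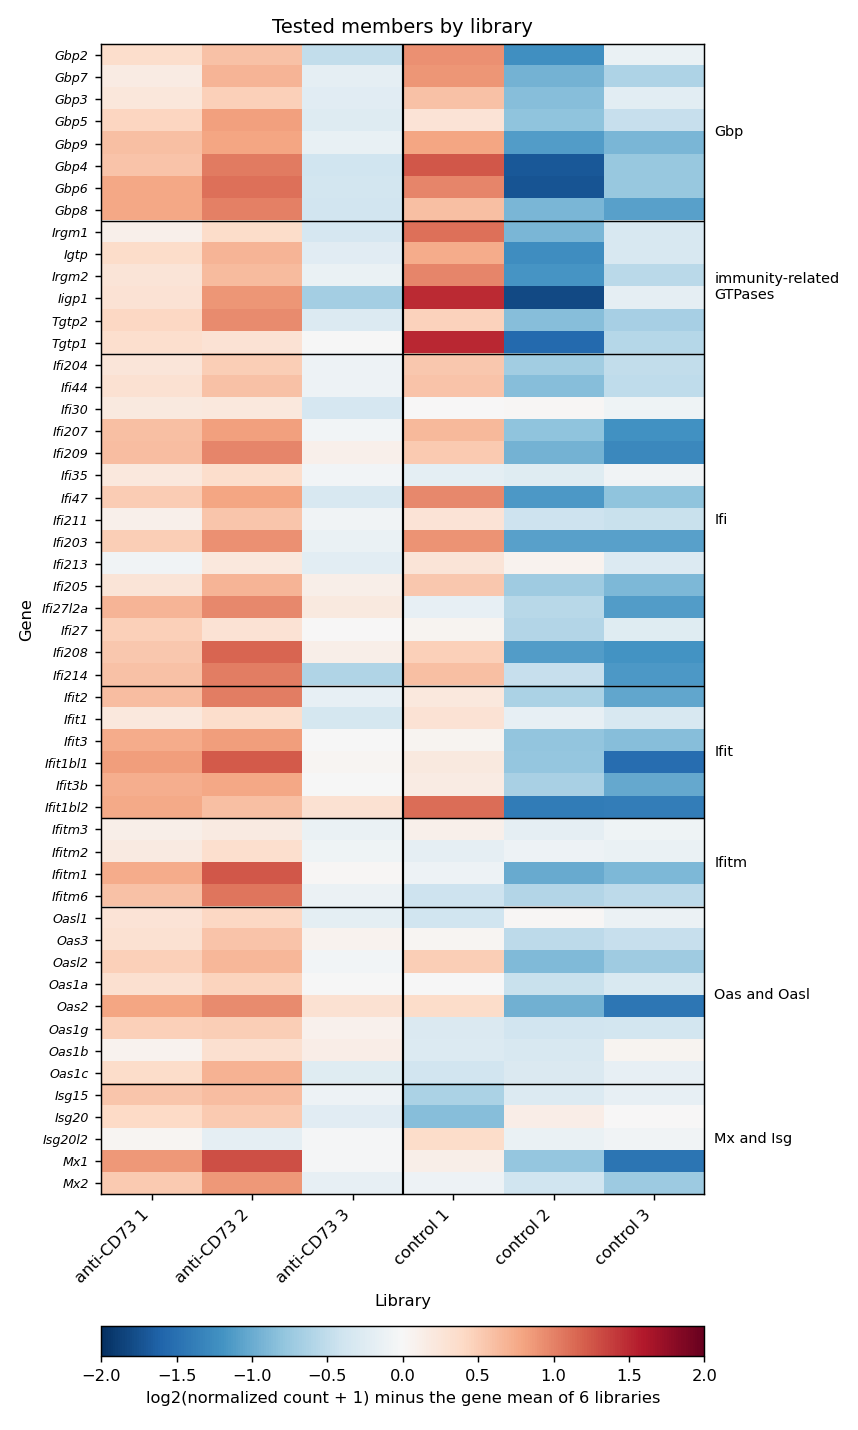
Colours give log2(normalized count + 1) minus the mean of the 6 libraries for each of the 52 tested members (rows, by family) in the 3 anti-CD73 libraries and the 3 control libraries (columns). Control replicate 1 is red across the GTPases at the top, where it is the highest library for 9 of 14 genes, and pale or blue for most Ifitm, Oas and Isg genes at the bottom. In between, its median is 0.53 for the Ifi genes and 0.20 for the Ifit genes.

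Without control replicate 1, 33 of the 52 tested members were higher and 0 lower at an adjusted p under 0.05 by limma, against 11.9% of all genes higher and 10.3% lower. These were 8 of 14 GTPases and 25 of 38 other members. In that fit edgeR and DESeq2 each called 34 members, all higher, against 12.3% of genes for each. Among the anti-CD73 libraries, replicate 3 had the lowest value for 50 of 52 members, against 36.4% of all tested genes, so the anti-CD73 libraries also differed among themselves. The macrophage marker sum was also lowest in replicate 3, with 14593, 18676 and 10250 normalized counts in anti-CD73 replicates 1, 2 and 3. So were the sums of T cell, natural killer cell, neutrophil, dendritic cell, plasmacytoid dendritic cell, B cell, endothelial and erythroid markers. Fibroblast and epithelial or tumour marker sums were not lowest there. The part of these cells in these results was not tested.

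**Figure D2:**
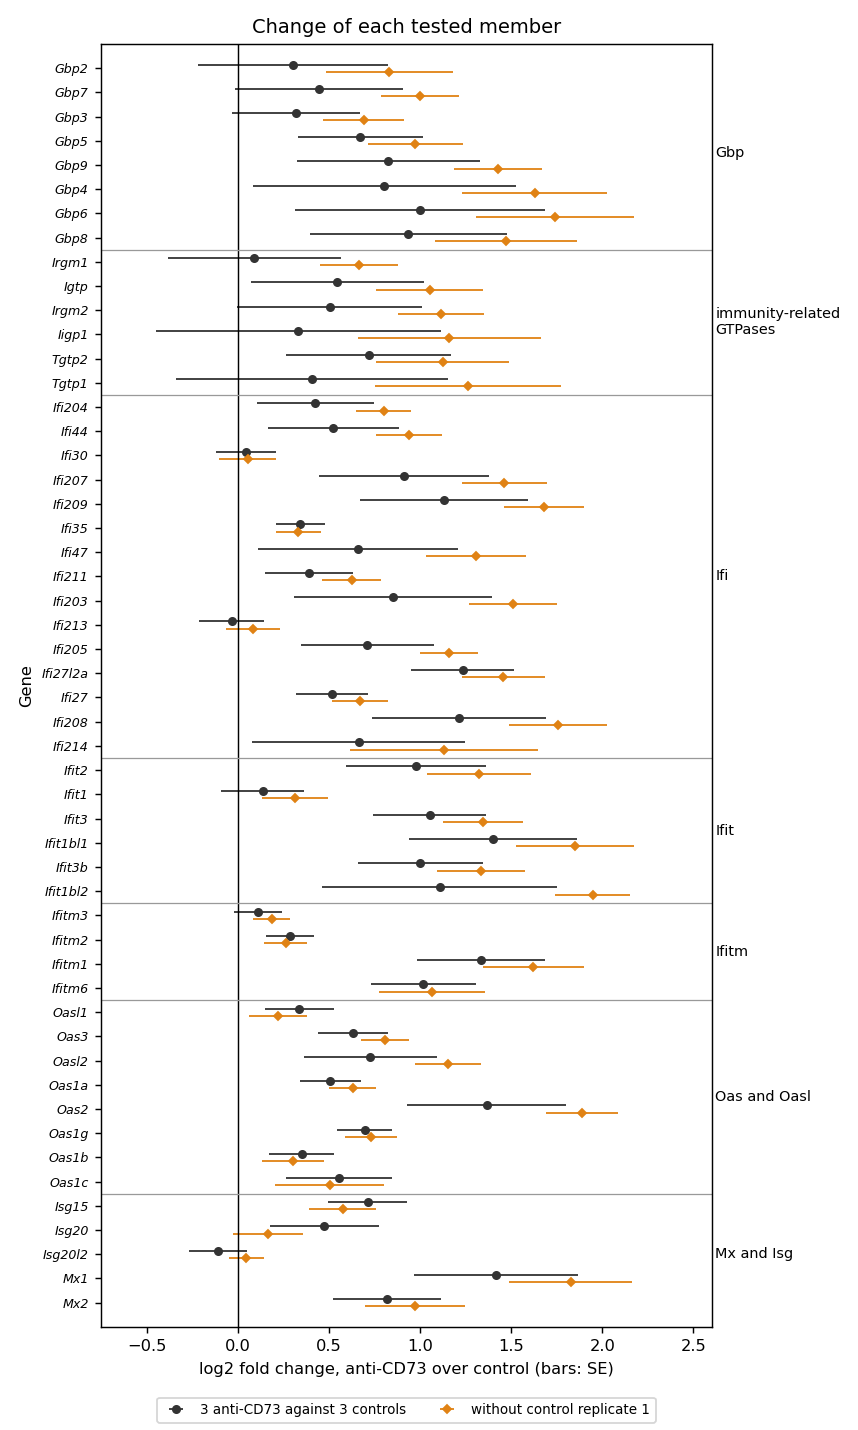
Points give the log2 fold change of anti-CD73 over control for each of the 52 tested members, with all 3 controls (black circles) and without control replicate 1 (orange diamonds), and bars give the standard error of limma. The GTPases have a median of 0.52 with all controls and of 1.12 without control replicate 1. The median standard error with all controls is 0.51 for the GTPases and 0.30 for the other members. By family the latter runs from 0.19 for the Oas and Oasl genes to 0.36 for the Ifit genes.

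Guanylate-binding proteins form dynamin-like coats on microbial membranes. All 8 tested Gbp genes had log2 fold changes above 0, between 0.30 and 1.00, and 0 had an unadjusted p under 0.05. Gbp2 (ENSMUSG00000028270; mm10 chromosome 3, 142620663 to 142638008) stood at 3981, 4677 and 2226 normalized counts in anti-CD73 replicates 1, 2 and 3, against 5855, 1328 and 2845 in control replicates 1, 2 and 3. The highest and the lowest of its 6 values were both controls, and the groups overlapped (log2 fold change 0.30, SE 0.52, limma adjusted p = 0.818). Gbp7 stood at 1886, 2697 and 1484 after anti-CD73, against 3108, 875 and 1097 in controls (log2 fold change 0.45, SE 0.46). Its anti-CD73 values all lay above control replicates 2 and 3 and below control replicate 1, and without that control its log2 fold change was 1.00 (SE 0.21, limma adjusted p = 0.0128).

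Gbp5, which promotes inflammasome assembly, had the smallest p of the GTPases, with 1283, 1688 and 800 normalized counts after anti-CD73 and 1148, 542 and 688 in controls (log2 fold change 0.67, SE 0.34, limma adjusted p = 0.393). Control replicate 1 was here within the anti-CD73 range. Gbp genes sit in a cluster on chromosome 3 (5 members, 4 tested) and a cluster on chromosome 5 (6 members, 4 tested). The 4 tested genes of chromosome 5 had log2 fold changes between 0.80 and 1.00 and those of chromosome 3 between 0.30 and 0.67, a split seen in the data and not tested. Gbp9, Gbp8, Gbp6 and Gbp4 make up the chromosome 5 group. Gbp9 stood at 720, 824 and 427 normalized counts after anti-CD73 and 821, 219 and 251 in controls, Gbp6 at 177, 222 and 79.2 after anti-CD73 and 204, 30.4 and 60.6 in controls. For both, control replicate 1 matched the higher anti-CD73 libraries. Gbp8 had 92.1, 109 and 41.1 after anti-CD73 and 82.2, 27.9 and 24.7 in controls. Without control replicate 1 all 4 of these genes and Gbp5 and Gbp7 passed (log2 fold changes 0.97 to 1.74), while Gbp2 (0.83, limma adjusted p = 0.119) and Gbp3 (0.69, limma adjusted p = 0.0531) did not.

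Immunity-related GTPases had the smallest changes of the 7 families with all controls, a median of 0.46 over 6 tested genes. Irgm1, a membrane regulator of autophagy and of the other members of its family, stood at 2438, 2951 and 1807 normalized counts after anti-CD73, against 4905, 1204 and 1822 in controls (log2 fold change 0.09, SE 0.48, limma adjusted p = 0.946). Control replicate 1 exceeded every anti-CD73 library for Irgm1, and the direction turned to -0.35 without control replicate 2, to -0.11 with edgeR and to -0.13 with DESeq2. Igtp had 1290, 1603 and 858 after anti-CD73, against 1674, 422 and 805 in controls (log2 fold change 0.55, SE 0.47), and 1.05 without control replicate 1 (SE 0.29, limma adjusted p = 0.0338). Iigp1, which is loaded onto the vacuoles of parasites, varied widely among controls, with 394, 594 and 201 after anti-CD73 and 906, 91.2 and 283 in controls. Its value in control replicate 1 lay 2.49 above the mean of the other controls on the log2 scale. Irgm2 passed without control replicate 1 (1.12, SE 0.24, limma adjusted p = 0.0127), and Irgm1 (0.67, 0.0544), Tgtp2 (1.12, 0.0554), Iigp1 (1.16, 0.131) and Tgtp1 (1.26, 0.107) did not.

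Tgtp1 and Tgtp2 are near-identical neighbours between which reads can be split or lost, and their levels are uncertain. Tgtp2 stood at 50.2, 73.1 and 30.8 normalized counts after anti-CD73 and 51.8, 20.3 and 23.2 in controls. Tgtp1 had 71 reads over all 6 libraries, 28.4 normalized counts in control replicate 1 and no more than 12.1 elsewhere. Ifi47, counted by its symbol among the other members, is also an immunity-related GTPase and had the same shape, with 1237, 1499 and 696 after anti-CD73 and 1697, 390 and 495 in controls.

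Promoters of the GTPases were examined for the ISRE core (GAAA, any 2 bases, GAAA) and the GAS letters (TTC, any 3 bases, GAA) on both strands, in the 250 bases before each RefSeq start (GRCm38.p6, the assembly of mm10), for the 48 of 65 members found in that table. Of the 17 GTPases, 10 were found there, and the Gbp genes of chromosome 5 and Iigp1 were not. The ISRE core was present in 10 of these 10 GTPases and 18 of 38 other members (47.4%), against 3.46% of all 27025 genes in the table. GAS letters were present in 6 of 10 GTPases and 5 of 38 other members (13.2%), against 8.13% of all genes. Both occurred in 6 of 10 GTPases and 1 of 38 other members, against 0.459% of all genes. A match is a description of these letters and not evidence of binding, and members that arose by duplication share promoter sequence. The last 100 bases before the start are shown for 7 of the 9 GTPases with a motif there (Gbp3 and Gbp5 are not shown), with the letters of ISRE cores and GAS in capitals, because Igtp, Irgm2, Tgtp1 and Tgtp2 all carry a GAS followed after 2 bases by an ISRE core.
Igtp (chr11:58199456-58199555, plus strand): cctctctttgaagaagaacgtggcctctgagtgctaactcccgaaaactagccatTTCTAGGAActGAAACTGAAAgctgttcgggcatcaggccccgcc
Irgm2 (chr11:58214877-58214976, plus strand): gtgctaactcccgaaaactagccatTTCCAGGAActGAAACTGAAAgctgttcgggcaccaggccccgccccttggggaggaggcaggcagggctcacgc
Tgtp1 (chr11:48992247-48992346, minus strand): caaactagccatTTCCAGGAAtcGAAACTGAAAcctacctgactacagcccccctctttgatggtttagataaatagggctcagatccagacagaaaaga
Tgtp2 (chr11:49064213-49064312, minus strand): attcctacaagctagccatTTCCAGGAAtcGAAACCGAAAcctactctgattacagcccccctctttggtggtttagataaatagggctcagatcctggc
Irgm1 (chr11:48871421-48871520, minus strand): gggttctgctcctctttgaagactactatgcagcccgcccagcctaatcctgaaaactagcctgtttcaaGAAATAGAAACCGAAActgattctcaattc
Gbp7 (chr3:142530236-142530335, plus strand): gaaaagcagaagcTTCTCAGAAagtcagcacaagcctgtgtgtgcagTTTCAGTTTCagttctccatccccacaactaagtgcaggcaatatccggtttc
Gbp2 (chr3:142620563-142620662, plus strand): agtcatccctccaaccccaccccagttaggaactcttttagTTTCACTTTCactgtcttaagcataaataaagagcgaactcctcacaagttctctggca
The first 4 sequences hold that pair, Irgm1 holds overlapping ISRE cores without GAS letters, Gbp7 holds GAS letters and an ISRE core 25 bases apart, and Gbp2 holds an ISRE core read on the opposite strand. Members with both motifs (7 tested, 6 of them GTPases) lay 1.52 above the other controls in control replicate 1 in the median, on the log2 scale, members with the ISRE core alone (20 tested) 1.06, members with GAS letters alone (3 tested) 0.14, members with neither (10 tested) 0.66 and members without a promoter in the table (12 tested) 1.40. The motif classes also differ in the families they hold.

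**Figure D3:**
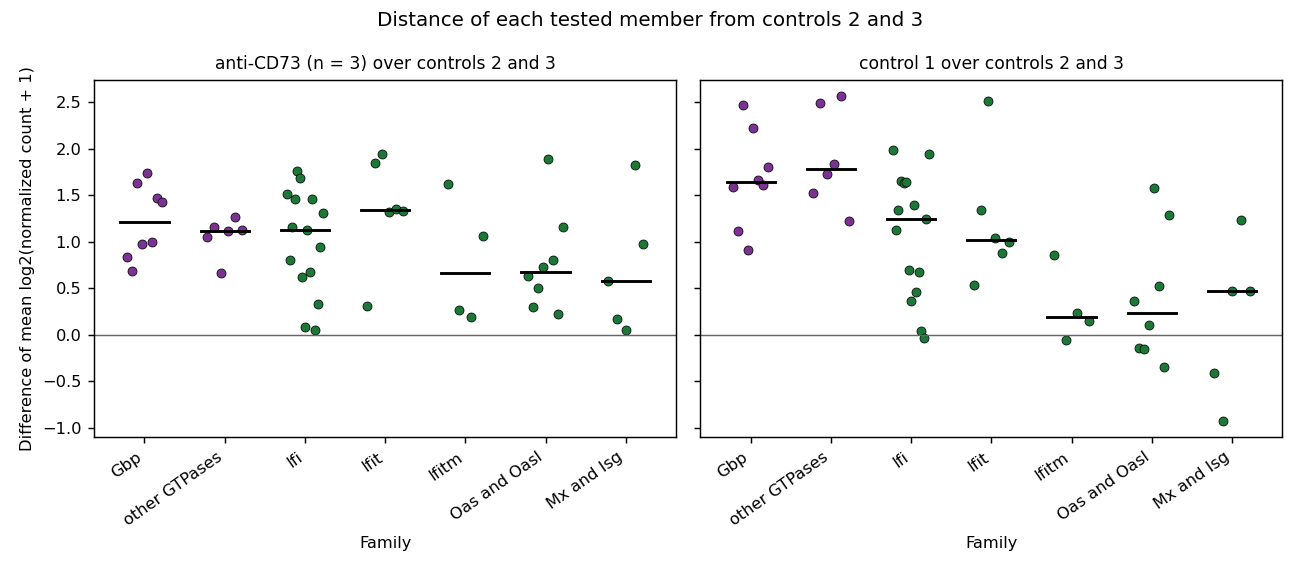
Each point is a tested member, by family (x axis; other GTPases are the Irgm, Iigp, Tgtp and Igtp genes; purple marks GTPases, green other members), and bars are medians. The left panel gives the 3 anti-CD73 libraries and the right panel control replicate 1. Each is the log2 difference from control replicates 2 and 3, which both panels share. On the left the medians are 1.21 for Gbp, 1.12 for the other GTPases, 1.13 for Ifi and 1.34 for Ifit. They are 0.66 for Ifitm, 0.68 for Oas and Oasl and 0.57 for Mx and Isg. On the right the medians are 1.64 for Gbp, 1.78 for the other GTPases, 1.25 for Ifi and 1.02 for Ifit. There they are 0.19 for Ifitm, 0.23 for Oas and Oasl and 0.46 for Mx and Isg.

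Control replicate 1 also held the most Ifng, the gene of interferon gamma. Ifng stood at 30.7, 25.4 and 8.23 normalized counts after anti-CD73, against 101, 10.1 and 12.0 in controls (log2 fold change -0.31, SE 0.90, limma adjusted p = 0.902), and its log2 fold change was 0.72 without control replicate 1. Cxcl9, a chemokine known to be induced by interferon gamma, stood at 208, 217 and 123 after anti-CD73, against 615, 21.5 and 133 in controls. Irf1, a transcription factor induced by interferon gamma, stood at 2692, 3131 and 2119 after anti-CD73, against 5023, 1770 and 3002 in controls. All 3 genes had their highest value in control replicate 1, as did 9 of 14 GTPases, against 30.7% of all tested genes. The lists that hold these 3 genes did not share this. That library was highest for 13 of 42 interferon-induced genes outside the families and for 4 of 18 tested signalling genes. Its log2 distance above the mean of the other controls had a median of 0.76 over the first list (range -0.44 to 3.49). Over the signalling genes the median was 0.25 (range -0.73 to 3.08). Cxcl9, named after its values were seen, and Ifng lay at the top of these ranges. The T cell marker sum was also highest in control replicate 1, at 588, against 142 and 196 in control replicates 2 and 3. After anti-CD73 it stood at 552, 492 and 284. The 5 genes listed as natural killer cell markers (Ncr1, Klrb1c, Klre1, Prf1 and Gzmb) summed to 914 in control replicate 1, against 312 and 452 in the other controls. Bulk RNA does not show which cells those transcripts came from. After anti-CD73 the sums of these 5 genes were 695.5, 649 and 366. The part of T cells and natural killer cells in the GTPase values was not tested.

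**Figure D4:**
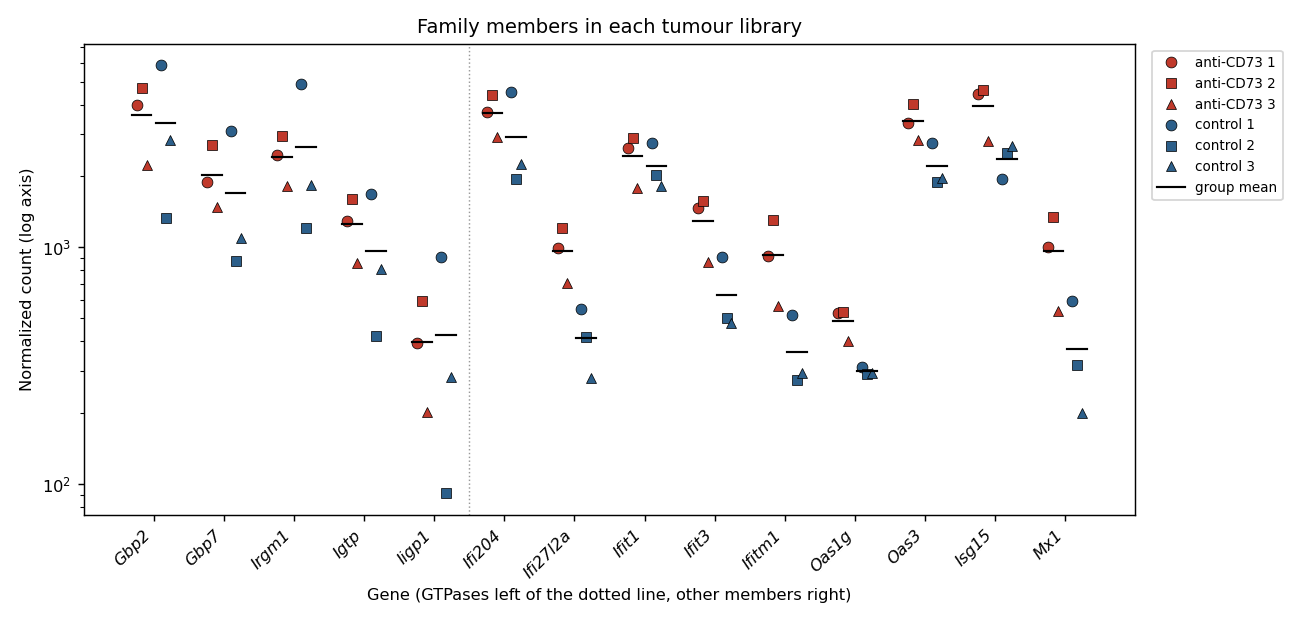
Normalized counts (log axis) of 14 members in each library, anti-CD73 (red) left of control (blue) for each gene, with the replicate number given by the symbol and the group mean by a bar. Control replicate 1 (blue circle) is the highest point for Gbp2, Gbp7, Irgm1, Igtp and Iigp1, and also for Ifi204 among the other members. All 3 red points of Oas1g, Oas3, Isg15, Ifitm1 and Ifi27l2a lie above all blue points. The genes drawn are a choice: of all 14 tested GTPases, control replicate 1 is highest for 9 and anti-CD73 replicate 2 for 5.

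Ifi genes share a name and not a function. Of the 15 tested, 14 had log2 fold changes above 0 (median 0.66), against 50.5% of all tested genes, and 5 were higher at an unadjusted p under 0.05, against 8.69%. Ifi27l2a, a small membrane protein of mitochondria and nucleus, stood at 989, 1202 and 703 normalized counts after anti-CD73, against 546, 417 and 281 in controls (965 ± 250 and 415 ± 132, SD, n = 3 each). The groups did not overlap, and the log2 fold change was 1.23 (SE 0.28, limma adjusted p = 0.165; DESeq2 called it). Its RefSeq span overlaps that of Ifi27, so reads of the pair may be mixed, and Ifi27 stood at 787, 690 and 566 after anti-CD73 against 585, 376 and 477 in controls.

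The chromosome 1 cluster of PYHIN genes, relatives of DNA sensors, held 10 of the Ifi members, of which 9 were tested. Their log2 fold changes ran from -0.03 (Ifi213) to 1.21 (Ifi208), with 2 at an unadjusted p under 0.05, and 7 of 9 lay more than 1 log2 unit higher in control replicate 1 than in the mean of the other controls. Ifi204 stood at 3711, 4397 and 2920 normalized counts after anti-CD73, against 4541, 1940 and 2234 in controls (log2 fold change 0.43, SE 0.32; 0.80 without control replicate 1, limma adjusted p = 0.0082). It followed the pattern of the GTPases, with control replicate 1 the highest library. Ifi213 stood apart from its neighbours, with 723, 878 and 655 after anti-CD73 and 903, 796 and 623 in controls, groups that overlapped fully. Its change was -0.03 with all controls and 0.08 without control replicate 1. The PYHIN genes are similar in sequence, and reads may be split among them.

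Ifi44 stood at 2176, 2641 and 1640 normalized counts after anti-CD73 and 2617, 981 and 1235 in controls (log2 fold change 0.52, SE 0.36). Ifi35 differed little between controls, with 1343, 1488 and 1118 after anti-CD73 and 1013, 978 and 1102 in controls, groups that did not overlap (log2 fold change 0.34, SE 0.14, limma adjusted p = 0.294). Ifi30, the lysosomal thiol reductase of antigen processing, had the value nearest 0 of the Ifi genes outside chromosome 1 (0.04, SE 0.17).

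Ifit genes had the largest median change of the 7 families, 1.03 over 6 tested genes, all above 0 and 4 higher at an unadjusted p under 0.05, against 8.69% of all tested genes. Ifit3, which stabilises Ifit1 on RNA in human cells, stood at 1461, 1562 and 864 normalized counts after anti-CD73, against 907, 504 and 480 in controls (log2 fold change 1.05, SE 0.31, limma adjusted p = 0.193; DESeq2 called it). Of the anti-CD73 libraries, replicate 3 alone lay within the control range. Ifit2 had 3468, 4593 and 2026 after anti-CD73, against 2615, 1468 and 1099 in controls (log2 fold change 0.98, SE 0.38). Ifit1, which binds RNA with a viral type of cap, lay apart from both, with 2612, 2901 and 1769 after anti-CD73 and 2761, 2013 and 1813 in controls. Its log2 fold change was 0.14 (SE 0.23, limma adjusted p = 0.81) and 0.31 without control replicate 1 (limma adjusted p = 0.245), and it was the sole Ifit gene of 6 that did not pass in that fit. Ifit1bl1 had the largest change of the family with all controls (1.40, SE 0.46) and Ifit1bl2 without control replicate 1 (1.95, SE 0.21). These genes, and the near-identical Ifit3 and Ifit3b, lie among each other on chromosome 19 with overlapping spans for some, so their separate levels are uncertain.

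Ifitm genes split by size of change. Ifitm1 stood at 918, 1300 and 562 normalized counts after anti-CD73, against 516, 274 and 294 in controls (927 ± 369 and 361 ± 134, SD, n = 3 each). Its log2 fold change was 1.34 (SE 0.35, limma adjusted p = 0.178; DESeq2 called it). Ifitm6 stood at 293, 410 and 179 after anti-CD73, against 146, 129 and 135 in controls (log2 fold change 1.02, SE 0.29, limma adjusted p = 0.189; DESeq2 called it). Both had groups that did not overlap, and control replicate 1 lay close to the other controls for Ifitm6. Ifitm3, the broad inhibitor of enveloped virus entry, had 7139, 7431 and 5953 after anti-CD73, against 7018, 5803 and 6177 in controls (log2 fold change 0.11, SE 0.13). Ifitm2 had 2054, 2289 and 1701 after anti-CD73, against 1596, 1684 and 1648 in controls (log2 fold change 0.28, SE 0.13). Ifitm2 did not overlap between groups but its lowest anti-CD73 value was close to its highest control.

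Of all tested members, 10 had groups that did not overlap, all higher after anti-CD73 and all outside the GTPases, which is 26.3% of the 38 other members, against 11.5% of all tested genes higher and 12% lower. They were Ifi27l2a, Ifi35, Ifitm1, Ifitm2, Ifitm6, Isg15, Oas3, Oas1a, Oas1g and Oas1b. Some gaps were narrow. The lowest anti-CD73 and highest control values were 151.6 and 151.2 for Oas1b, 1046 and 1041 for Oas1a, and 1118 and 1102 for Ifi35. For Ifitm2 these were 1701 and 1684, and for Oas3 2821 and 2758. Without control replicate 1, 10 of 14 GTPases and 29 of 38 other members did not overlap, all higher, against 25.7% of all tested genes.

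Oas genes made up 4 of those 10. All 8 tested Oas and Oasl genes had log2 fold changes above 0 (0.34 to 1.36, median 0.59) and 4 were higher at an unadjusted p under 0.05, against 8.69% of all tested genes. Oas1g had the smallest p of all members, with 528, 535 and 402 normalized counts after anti-CD73, against 313, 290 and 293 in controls (488 ± 74.8 and 299 ± 12.2, SD, n = 3 each; log2 fold change 0.70, SE 0.15, limma adjusted p = 0.158; DESeq2 called it). Its 3 controls were close together, and its change without control replicate 1 was 0.73 (limma adjusted p = 0.00902). Oas3 stood at 3335, 4023 and 2821 after anti-CD73, against 2758, 1880 and 1956 in controls (log2 fold change 0.63, SE 0.19, limma adjusted p = 0.201). Oas1a had 1307, 1426 and 1046 after anti-CD73, against 1041, 767 and 850 in controls. Oas1a and Oas1g are close paralogs and may share reads.

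Oas2 and Oasl2 were less steady among the controls. Oas2 had 1274, 1425 and 914 normalized counts after anti-CD73, against 950, 378 and 269 in controls (log2 fold change 1.36, SE 0.43; 1.89 without control replicate 1, limma adjusted p = 0.00154). Oasl2 had 3456, 3976 and 2411 after anti-CD73, against 3513, 1359 and 1530 in controls. In both, control replicate 1 lay within the range of the anti-CD73 libraries. Oasl1, which limits interferon production in mouse cells by blocking translation of Irf7, ran the other way among controls, with 3710, 4090 and 2677 after anti-CD73 and 2313, 3104 and 2806 in controls (log2 fold change 0.34, SE 0.19).

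Isg15 and Isg20 were lowest in control replicate 1. Isg15 stood at 4418, 4590 and 2802 normalized counts after anti-CD73, against 1935, 2495 and 2671 in controls (3936 ± 986 and 2367 ± 384, SD, n = 3 each). The groups did not overlap, with a log2 fold change of 0.71 (SE 0.22, limma adjusted p = 0.204; DESeq2 called it) and of 0.57 without control replicate 1 (limma adjusted p = 0.056). Isg20, an exonuclease of single-stranded RNA, had 1773, 1934 and 1152 after anti-CD73, against 742, 1470 and 1351 in controls (log2 fold change 0.47, SE 0.30; 0.17 without control replicate 1). The promoters of Isg15, Oas1g and Oas1a are shown as examples, picked among the members whose groups did not overlap. Of the other such members, Ifitm2 and Oas3 also held an ISRE core, Ifitm6 held GAS letters alone, and Ifi35 and Ifitm1 held neither. Ifi27l2a and Oas1b had no promoter to search. Capitals mark overlapping ISRE cores and, in Oas1a, GAS letters further upstream.
Isg15 (chr4:156200819-156200918, minus strand): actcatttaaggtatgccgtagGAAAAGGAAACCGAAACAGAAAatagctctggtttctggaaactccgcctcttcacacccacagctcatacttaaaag
Oas1g (chr5:120887614-120887713, minus strand): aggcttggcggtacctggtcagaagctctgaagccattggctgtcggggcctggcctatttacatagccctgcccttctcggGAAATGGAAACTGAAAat
Oas1a (chr5:120907526-120907625, minus strand): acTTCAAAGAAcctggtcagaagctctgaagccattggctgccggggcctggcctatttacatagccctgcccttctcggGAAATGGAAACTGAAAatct
Isg15 carries 3 ISRE cores and Oas1g and Oas1a 2 each within these windows, and the ISRE cores of Oas1g and Oas1a lie in a shared stretch of sequence.

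Mx1 had the largest change of any tested member with all controls. Mx proteins are antiviral dynamin-like GTPases, and the Mx1 allele of C57BL/6 mice is known to encode no functional protein. Mx1 stood at 1000, 1337 and 539 normalized counts after anti-CD73, against 592, 319 and 199 in controls (log2 fold change 1.42, SE 0.45, limma adjusted p = 0.216; DESeq2 called it). Anti-CD73 replicate 3 lay below control replicate 1, so the groups overlapped. Mx2 had 233, 296 and 145 after anti-CD73, against 151, 123 and 97.3 in controls (log2 fold change 0.82, SE 0.29). Isg20l2, which shares the name but is a nuclease of ribosomal RNA maturation, was the member with the lowest change, with 1008, 866 and 971 after anti-CD73 and 1269, 893 and 941 in controls (log2 fold change -0.11, SE 0.16), and 0.05 without control replicate 1.

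Over all 65 members, reads in these families made up 0.614, 0.714 and 0.435% of the reads of anti-CD73 replicates 1, 2 and 3, against 0.574, 0.320 and 0.348% in control replicates 1, 2 and 3. GTPases made up 0.121, 0.150 and 0.0785% after anti-CD73, against 0.171, 0.0447 and 0.0738% in controls, so the single highest library was a control. Mx and Isg genes made up 0.0688, 0.0734 and 0.0455% after anti-CD73, against 0.0361, 0.0411 and 0.0409% in controls, and there all anti-CD73 libraries exceeded all controls. The 13 members under the filter held between 0 and 60 reads over all libraries. They were Gbp2b, Gbp10, Gbp11, Ifi202b, Ifi27l2b, Ifi44l, Ifitm5, Ifitm7, Ifitm10, Oas1d, Oas1e, Oas1f and Oas1h. Ifi44l had no read in any library, and Gbp2b had 18.3 normalized counts in control replicate 1 and no more than 9.53 in the other libraries.

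Upstream of these families, transcripts of type I interferon were near the floor. Ifnb1 stood at 15.8, 15.9 and 3.08 normalized counts after anti-CD73, against 9.14, 11.4 and 14.2 in controls, and Ifna1, Ifna2 and Ifna5 had no read in any library. The signalling list of ligands, receptors, kinases and transcription factors held 25 genes, of which 18 were tested, 14 had log2 fold changes above 0 (median 0.41), and 5 were higher and 0 lower at an unadjusted p under 0.05, against 8.69% higher and 6.82% lower over all genes. None passed by limma over all genes (0 of 18), and 10 were higher without control replicate 1, against 11.9% of all genes. Irf7, which amplifies type I interferon, stood at 7082, 8881 and 5241 after anti-CD73, against 3880, 3657 and 3613 in controls (log2 fold change 0.89, SE 0.19, limma adjusted p = 0.151). The kinase gene Tyk2 stood at 488, 575 and 469 after anti-CD73, against 270, 319 and 301 in controls (log2 fold change 0.78, SE 0.14), and Irf8 had a log2 fold change of 0.79 (SE 0.19). These 3 genes had groups that did not overlap and controls that lay together, and DESeq2 called all 3 (adjusted p = 0.0014 for Irf7, 0.00034 for Tyk2 and 0.0074 for Irf8).

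Stat2 and Irf9, partners in the complex that binds ISRE, had log2 fold changes of 0.34 (SE 0.20) and 0.22 (SE 0.17), and Irf1 had -0.19 (SE 0.35), which turned to 0.18 without control replicate 1. Of 42 interferon-induced genes outside the families, all tested, 39 had log2 fold changes above 0 (median 0.40), 9 were higher and 0 lower at an unadjusted p under 0.05, against 8.69% higher and 6.82% lower over all genes, and 0 passed over all genes. Those with the smallest p were the RNA helicase gene Dhx58 (0.77, SE 0.20), Epsti1 (0.99, SE 0.31) and Pml (0.71, SE 0.25). Without control replicate 1, 25 of the 42 were higher by limma and 0 lower, against 11.9% higher and 10.3% lower over all genes. Of 9 negative regulators, 2 were higher and 1 lower at an unadjusted p under 0.05, against 8.69% higher and 6.82% lower over all genes, and 3 were higher without control replicate 1 by adjusted p, against 11.9%. Those at the unadjusted threshold were the phosphatase gene Ptpn6 (0.97, SE 0.16) and the Isg15 protease gene Usp18 (0.50, SE 0.20) on the higher side and Socs3 (-0.36, SE 0.14) on the lower. Of 13 tested nucleic acid sensor genes, 3 were higher and 0 lower at an unadjusted p under 0.05, against 8.69% higher and 6.82% lower over all genes, and 7 were higher without control replicate 1 by adjusted p, against 11.9%. Among the 3 were the kinase gene Ikbke (1.19, SE 0.22) and Tlr9 (1.66, SE 0.57).

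Markers of other cell types also differed between libraries. The macrophage markers (10 of 10 tested, none at 0) had a median log2 fold change of 0.75, the neutrophil markers (7 of 7) 0.97 and the dendritic cell markers (6 of 7 tested) 1.05. The endothelial markers (3 of 5 tested) had a median of 1.16 and the T cell markers (9 of 10 tested) of 0.69. Medians were 0.17 for natural killer cell (4 of 5 tested), 0.25 for plasmacytoid dendritic cell (4 of 4) and 0.36 for fibroblast markers (6 of 6). Epithelial or tumour markers (3 of 5 tested) had a median of -0.29, and the 1 tested B cell marker of 3 had -0.77. Without control replicate 1 the medians were 1.06 for macrophage, 0.83 for neutrophil, 1.62 for dendritic cell, 1.98 for endothelial and 1.35 for T cell markers. In that fit they were 0.53 for natural killer cell, 0.43 for plasmacytoid dendritic cell and 0.50 for fibroblast markers. Epithelial or tumour markers had -0.16 and the B cell marker -0.89. Endothelial marker sums were 704, 844 and 549 after anti-CD73, against 761, 239 and 185 in controls. Summed, neutrophil markers lay between 8498 and 15007 normalized counts after anti-CD73 and between 5807 and 7687 in controls, and dendritic cell markers between 2158 and 4887 after anti-CD73 and between 784 and 3870 in controls. Control replicate 1 held 3870 for dendritic cells, against 874 and 784 in the other controls, and 12509 for macrophages, against 7510 and 6519, while for neutrophils it held the lowest sum of the 6 libraries. Erythroid markers (5 of 7 measured) ran the other way, with 7845 in control replicate 1 against 55529 and 58716 in the other controls, and between 8412 and 30978 after anti-CD73. Their median log2 fold change was -0.73 with all controls and -1.64 without control replicate 1. Without that library all 5 were lower by limma at an adjusted p under 0.05, against 10.3% of all tested genes. The part of these cells in the family values was not tested.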

How the data were processed

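Bulk RNA-seq values of 6 libraries, 3 anti-CD73 and 3 control, were used, grouped by sample titles and matched to columns by sample descriptions. Per the labels, the authors scaled the count of each gene by DESeq, which makes the deposited values a signal per library and not raw counts. The submitters' processing notes list Bowtie 0.12.7 and mm10. The sources used here do not give how reads were counted, on which annotation and strand, or what became of reads with several matches, so near-identical or overlapping genes may share or lose reads. RNA was purified with Direct-zol and libraries made with NEBNext Ultra II, per the labels' protocols.

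Values were whole multiples of 1 read (100% within 0.01), which gave recovered reads. Groups were compared with limma 3.58.1 (R 4.3.3; moderated with a mean trend), two-sided, on log2(normalized count + 1) over 12262 genes with a mean of at least 10, with Benjamini-Hochberg adjustment over all of them and a threshold of 0.05; this scale understates changes of low genes. edgeR 4.0.16 (quasi-likelihood) and DESeq2 1.42.0 were run on recovered reads as alternatives. Members and gene lists were chosen with earlier results of these data known. Named genes were the 2 members with the most normalized counts per family, the 6 GTPases and the 6 other members with the smallest p, tested members with a log2 fold change below 0, the 3 smallest p per pathway list, and Ifng, Ifnb1, Irf7, Irf1, Stat2 and Irf9, apart from listed genes that are not reported here; other genes were named after their values were seen. The scripts were tested on simulated data. Promoters and coordinates come from RefSeq tables of GRCm38.p6, matched by symbol. Figures were drawn with matplotlib 3.10.9.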

Additional observations from a re-analysis of the deposited data

How the results depend on the processing

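Alternatives were a pseudocount of 0.5 or 8, testing of every gene, a minimum mean of 50, TMM scaling, scaling to library totals, quantile normalization, robust empirical Bayes, replicate blocks, edgeR, DESeq2 and each library left out. Over all genes, 0 calls became 595 with DESeq2 and 1780 with a replicate block by description number, and ran from 0 to 2724 with libraries left out; without control replicate 1, edgeR called 2703 and DESeq2 2679, settings added after seeing the data. Members called went from 0 to 7 with DESeq2, to 32 with the block by description number and to 0 to 33 with libraries left out, and to 34 with edgeR or DESeq2 without control replicate 1. GTPases at an unadjusted p under 0.05 went from 0 to 1 with the block by title number, 11 with the block by description number, 0 to 14 with libraries left out, and 13 (edgeR) or 11 (DESeq2) without control replicate 1. For the other members, 18 became 5 to 27 with libraries left out, 29 with edgeR and 28 with DESeq2 without control replicate 1.

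The difference of the class medians, -0.16, turned to 0.079 with the block by description number, 0.064 with edgeR and 0.099 with DESeq2 without control replicate 1, and ran from -0.47 to 0.16 with libraries left out. Irgm1 turned to -0.13 with DESeq2 and -0.11 with edgeR, and ran from -0.35 to 0.67 with libraries left out, Gbp2 from -0.24 to 0.83 Ifit1 from -0.0070 to 0.35, Ifi213 from -0.18 to 0.085 and Isg20l2 from -0.21 to 0.046. Ifi213 turned to 0.036 with library totals and 0.10 with edgeR or DESeq2 without control replicate 1, and Isg20l2 to 0.11 with the block by description number and 0.061 with edgeR or DESeq2 without control replicate 1. Deviations from group means of same-numbered libraries had correlations of 0.19, -0.096 and 0.26 by title and of -0.16 and 0.26 by description. With 3 libraries per group such deviations cancel within a group, so these values cannot settle whether the numbers pair libraries. The block by description number has only 2 complete pairs, so control replicate 1 and anti-CD73 replicate 2 do not enter its estimates. It is therefore not independent of leaving out control replicate 1, though it drops an anti-CD73 library as well. Why results moved was not tested beyond these settings. Members with few reads, such as Tgtp1, are limited by depth.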
